A study of Homo sapiens with 10 samples.

Results

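The tricarboxylic acid cycle is the ring of reactions in the mitochondrial matrix that oxidizes acetyl-CoA to carbon dioxide and passes the electrons to the respiratory chain. The genes described here were chosen by name, with earlier results of these data known. All encode enzymes and subunits of the cycle other than the isocitrate dehydrogenases. They are CS (citrate synthase), OGDH, DLST and KGD4 (parts of the 2-oxoglutarate dehydrogenase complex), SUCLG1, SUCLG2 and SUCLA2 (the subunits of succinyl-CoA ligase), FH (fumarase) and MDH2 (mitochondrial malate dehydrogenase). Of these 9 genes, 8 had a transcript cluster, the probe group that the array assigns to a gene, under their own symbol. Each of the 8 had exactly 1 such cluster, out of 20961 clusters with a symbol that were tested. FH was not analysed here.

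Expression was measured in Panc1, an established epithelial line from a human pancreatic carcinoma, 48 h after adenoviral transduction at a multiplicity of infection of 150. Cells received wild type KLF11, 1 of 3 KLF11 mutants named A347S, Δ486 and EAPP, or empty vector (EV), each from the same viral backbone with a constitutive cytomegalovirus promoter. KLF11 is a zinc finger transcription factor that binds GC-rich DNA and recruits chromatin cofactors. By the study's description, A347S uncouples KLF11 from WD40 proteins, Δ486 is a truncation that uncouples it from HP1 and histone methyltransferases, and EAPP carries prolines that uncouple it from Sin3 and histone deacetylases. Each of the 5 groups had 2 arrays, 10 in all. The sample titles call the 2 arrays biological replicates, whereas the methods and the extract protocol describe technical duplicates of RNA pooled from 3 biological replicates. Errors and p-values therefore measure the spread between arrays and may leave out the variation between cultures. In bulk RNA of this kind, fewer cells of a type and less RNA per cell cannot be told apart.

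Values are log2 signals after background correction and Robust Multiarray Analysis by the authors. Array medians lay between 6.81 and 6.87, and the arrays of a group correlated at 0.996 to 0.997 over clusters. Changes are differences of log2 means from limma, fitted over all clusters and all 10 arrays, with Benjamini-Hochberg adjusted p-values. A gene is said to have risen or fallen where the adjusted p was under 0.05. It is called where the fold was also at least 1.5. Whether the arrays of groups overlap is given as a description only. With 2 arrays per group and shared EV arrays, a lack of overlap does not show a change. Its share over all clusters was not counted. The KLF11 transcript itself had log2 signals of 8.82 and 8.85 for KLF11, 8.85 and 8.88 for A347S, 8.72 and 8.83 for Δ486 and 8.78 and 8.68 for EAPP, against 8.37 and 7.75 for EV. All 8 construct arrays were above both EV arrays, although the change with EAPP did not pass (limma adjusted p = 0.282, unadjusted p = 0.002). Between EAPP and KLF11 the transcript differed by -0.11 (adjusted p = 0.742). The study reports that wild type KLF11 and the mutants were overexpressed to a similar degree on a Western blot. The EV arrays were far apart, and without the second of them the change with KLF11 was 0.46 in place of 0.77. No source used here states whether these probes read the viral transcript. Of the epithelial markers, KRT8 and KRT18 were bright (12.18 to 13.25 over the 10 arrays), whereas KRT7 (6.28 to 6.52) and CDH1 (4.71 to 5.12) were not. Of the leukocyte markers, PTPRC read at most 3.75 and CD3E at most 5.09, whereas CD68 was bright (9.54 to 9.77).

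The cycle runs from citrate synthase, which joins acetyl-CoA to oxaloacetate, through isocitrate and 2-oxoglutarate to succinyl-CoA. Succinyl-CoA ligase then makes GTP or ATP, depending on which β subunit is bound to its common α subunit, and succinate is turned through fumarate and malate back into oxaloacetate. The 2-oxoglutarate dehydrogenase complex is the step that commits carbon to succinyl-CoA and is built from a decarboxylase (OGDH), a lipoate-bearing core (DLST), a flavoprotein (DLD) and the small adaptor protein KGD4. KGD4 was first annotated as a protein of the mitochondrial ribosome, under the name MRPS36.

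Because KLF11 binds GC-rich DNA, the 250 bases before the annotated start of each gene were taken from RefSeq, on genome build GRCh38.p14. A window was found for 7 of the 8 genes. The windows of KGD4 and of the 3 succinyl-CoA ligase genes are printed because, of the 7 genes, these had the largest falls and rises below. Capitals mark, on either strand, the GC box GGGCGG and the CACCC box CCACCC, both recognized by zinc finger proteins of the SP and KLF family.
KGD4 (chr5:69217510-69217759, plus strand): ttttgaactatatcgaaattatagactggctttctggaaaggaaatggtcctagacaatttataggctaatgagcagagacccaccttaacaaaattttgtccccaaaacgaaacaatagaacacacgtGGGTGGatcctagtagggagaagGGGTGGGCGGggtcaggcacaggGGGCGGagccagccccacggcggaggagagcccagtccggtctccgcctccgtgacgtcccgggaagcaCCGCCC
SUCLG1 (chr2:84459281-84459530, minus strand): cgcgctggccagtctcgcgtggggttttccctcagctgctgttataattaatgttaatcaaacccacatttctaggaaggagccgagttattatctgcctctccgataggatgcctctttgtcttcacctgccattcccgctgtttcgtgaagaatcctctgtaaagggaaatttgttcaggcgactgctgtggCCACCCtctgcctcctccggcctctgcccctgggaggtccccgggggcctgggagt
SUCLG2 (chr3:67654613-67654862, minus strand): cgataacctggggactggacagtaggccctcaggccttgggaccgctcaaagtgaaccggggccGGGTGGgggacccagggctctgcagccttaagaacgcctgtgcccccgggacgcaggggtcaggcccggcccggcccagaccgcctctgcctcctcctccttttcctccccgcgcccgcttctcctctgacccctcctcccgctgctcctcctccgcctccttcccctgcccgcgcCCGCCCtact
SUCLA2 (chr13:48001274-48001523, minus strand): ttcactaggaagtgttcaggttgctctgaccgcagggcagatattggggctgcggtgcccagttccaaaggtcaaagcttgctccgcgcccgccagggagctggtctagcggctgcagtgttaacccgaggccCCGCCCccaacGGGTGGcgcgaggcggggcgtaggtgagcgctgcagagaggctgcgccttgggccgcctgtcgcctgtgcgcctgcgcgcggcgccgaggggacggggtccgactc
The KGD4 window held 3 GC boxes and 2 CACCC boxes, of which 1 GC box and 1 CACCC box overlapped at 94 and 98 bases before the start. The SUCLG1 window held 1 CACCC box and no GC box. SUCLG2 and SUCLA2 each had 1 of both. Over the 7 genes with a window, 5 had a GC box and 6 a CACCC box. In all 35116 windows of 250 bases, 42.6% held a GC box and 31.3% a CACCC box. CS had the most matches, with 5 GC boxes and 3 CACCC boxes. MDH2 had neither, and held 2 copies of the ETS motif CCGGAAG, which DLST held 1 time and 8.52% of windows contained. The binding motif of NRF1, a regulator of nuclear genes for mitochondrial proteins, was found in 0 of the 7 windows and in 1.03% of all windows. These matches are letters in a window, and no binding was measured here. GC content was 54.4% in the KGD4 window and 55.2% in the SUCLG1 window, below the median of all windows (58%), while the other 5 lay between 66% and 71.2%.

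Within the cycle, KGD4 and OGDH fell and SUCLG1 rose with KLF11, A347S and Δ486, and none of the 8 genes moved past the test with EAPP. With KLF11, 3 of the 8 genes passed the adjusted p, 1 upward and 2 downward, where 17.3% of all clusters did so. With A347S, 6 passed, 2 upward and 4 downward, against 28.4% of clusters. With Δ486, 5 passed, 2 upward and 3 downward, against 22.4% of clusters. Fewer were called under the 1.5-fold rule. These were KGD4 and SUCLG1 with KLF11 (3.99% of clusters), KGD4, SUCLG1 and OGDH with A347S (8.98%), and KGD4 and SUCLG1 with Δ486 (5.61%). With EAPP, 0 of the 8 passed either rule, nor an unadjusted p under 0.05, which 1829 clusters (8.73%) met. Only 1 cluster of the whole array (0.00477%) passed the adjusted p with EAPP, with or without the fold. The 8 genes had a median change of -0.06 with KLF11, beside -0.02 for all clusters. The same pair of medians was -0.16 and 0.01 for A347S, -0.07 and 0.02 for Δ486, and 0.06 and 0.00 for EAPP. Both rises and falls were thus present among the 8 genes. The 4 comparisons share the EV arrays.

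**Figure D1:**
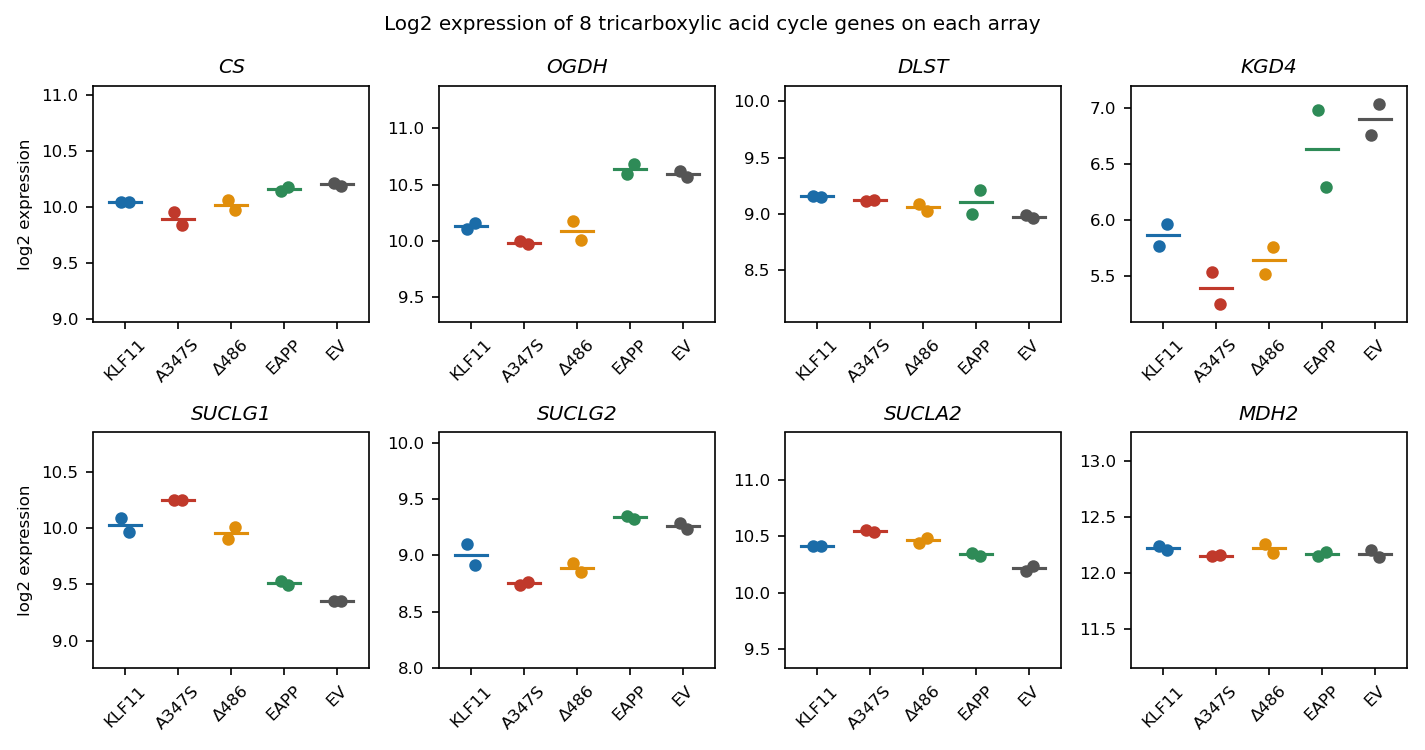
log2 signal (vertical axis) of each of the 8 genes on every array, by group (horizontal axis), with points for single arrays and a horizontal line for the mean of the 2 arrays. All panels span the same number of log2 units. KGD4 spans the widest range of the 8, between 5.26 and 7.03, SUCLG1 runs in the opposite direction between 9.35 and 10.25, and MDH2 lies flat between 12.14 and 12.26.

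CS (chr12:56271699-56300330 on GRCh38.p14, the build of all coordinates given) catalyses the entry of acetyl-CoA into the cycle. Its log2 signals were 10.04 and 10.04 for KLF11, 9.95 and 9.84 for A347S, 10.06 and 9.97 for Δ486 and 10.14 and 10.18 for EAPP, against 10.21 and 10.19 for EV. Every construct array was below both EV arrays, by a small margin with EAPP. The fall passed with A347S alone, at -0.31 ± 0.07 on the log2 scale (SE, adjusted p = 0.0112 by limma), or 0.809 of the EV level. This pass was lost when either EV array or the second A347S array was left out (adjusted p = 0.0682, 0.0523 and 0.0838). The changes with KLF11 and Δ486 were -0.16 (adjusted p = 0.184) and -0.18 (adjusted p = 0.105). With EAPP the change was -0.04, with a 95% interval of -0.20 to 0.12.

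OGDH (chr7:44606627-44709066), the decarboxylase of the 2-oxoglutarate dehydrogenase complex, fell with 3 constructs. The log2 signals were 10.11 and 10.16 for KLF11, 9.99 and 9.97 for A347S, 10.17 and 10.01 for Δ486 and 10.59 and 10.69 for EAPP, against 10.62 and 10.56 for EV. The arrays of KLF11, A347S and Δ486 all lay below every EAPP and EV array, and EAPP and EV overlapped. The changes against EV were -0.46 with KLF11 (adjusted p = 0.00461), -0.61 with A347S (adjusted p = 0.00042) and -0.50 with Δ486 (adjusted p = 0.00201), each with an SE of 0.08. In linear terms the level was 0.729, 0.655 and 0.706 of that with EV. Only the A347S change reached the fold threshold, and it missed it after cyclic loess scaling (-0.55), after quantile scaling (-0.58) and without the first EV array (-0.58). With EAPP the change was 0.05, with a 95% interval of -0.13 to 0.23.

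KGD4 (chr5:69217760-69230158) bridges OGDH and DLST to the flavoprotein of the complex. Its log2 signals were 5.77 and 5.96 for KLF11, 5.54 and 5.26 for A347S, 5.53 and 5.76 for Δ486 and 6.98 and 6.29 for EAPP, against 6.76 and 7.03 for EV. All 6 arrays of KLF11, A347S and Δ486 lay below the 4 arrays of EAPP and EV, while the EAPP arrays were far apart and lay on either side of the lower EV array. The falls against EV were the largest of the 8 genes, at -1.03 with KLF11 (adjusted p = 0.00785), -1.50 with A347S (adjusted p = 0.0005) and -1.25 with Δ486 (adjusted p = 0.00218), each with an SE of 0.20. KGD4 transcript was thus at 0.49, 0.354 and 0.419 of the EV level. Only 20, 7 and 10 of the 20961 clusters had a lower change with KLF11, A347S and Δ486. With EAPP the change was -0.26 (adjusted p = 0.785), and its 95% interval ran from -0.72 to 0.19. KGD4 was a dim cluster here, since 35.9% of clusters had a mean signal at or below its own. The fall with KLF11 was the least firm of the 3: without the second EV array its adjusted p was 0.0592, without the first KLF11 array 0.063 and without moderation of the variances 0.0709.

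DLST (chr14:74881916-74903743), the core that carries the lipoate arm and transfers the succinyl group, gave log2 signals of 9.16 and 9.15 for KLF11, 9.12 and 9.13 for A347S, 9.09 and 9.03 for Δ486 and 8.997 and 9.21 for EAPP, against 8.99 and 8.96 for EV. All 8 construct arrays were above both EV arrays. The changes lay between 0.09 and 0.18 with an SE of 0.08, and none passed (adjusted p = 0.18 with KLF11, 0.235 with A347S, 0.513 with Δ486 and 0.712 with EAPP). DLD, the flavoprotein that this complex shares with pyruvate dehydrogenase, fell with A347S (-0.50, adjusted p = 0.0017) and with Δ486 (-0.43, adjusted p = 0.006), and its change with KLF11 was -0.27 (adjusted p = 0.0566). Within a complex, then, OGDH and KGD4 fell with 3 constructs, DLD with 2, and DLST had no change past the test. The difference between DLST and its partners was not tested.

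**Figure D2:**
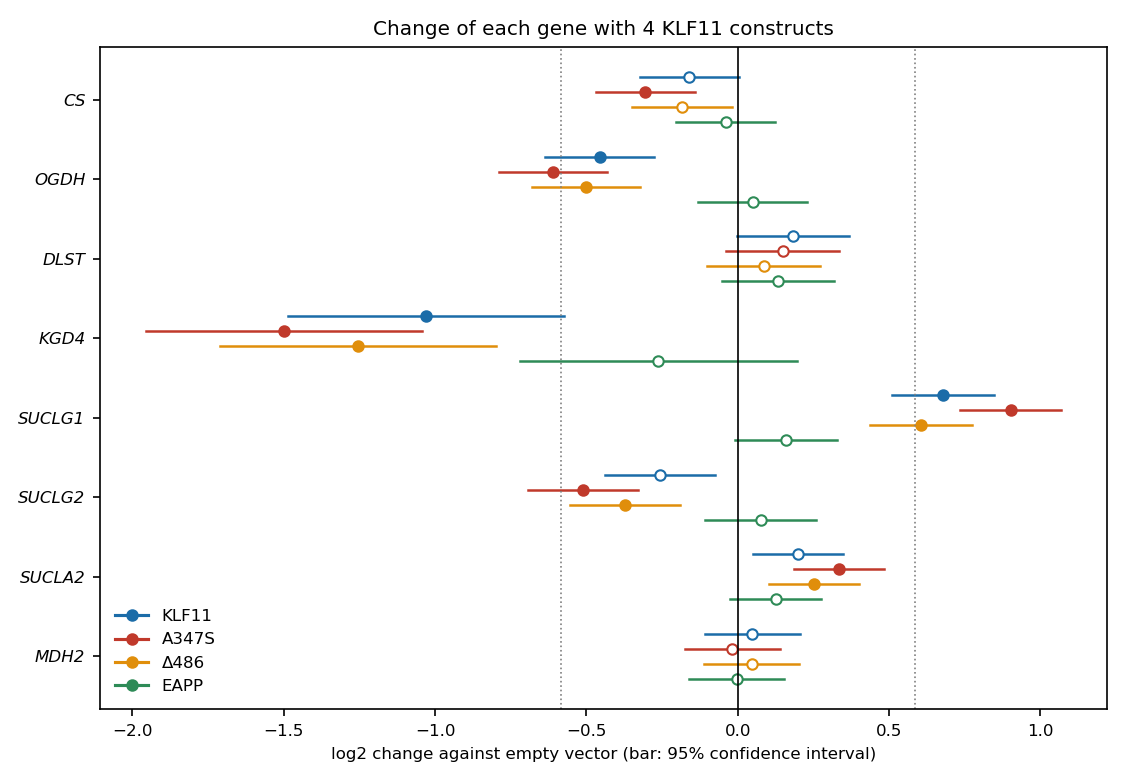
log2 change against EV (horizontal axis) of each of the 8 genes with KLF11, A347S, Δ486 and EAPP, with bars for the 95% confidence interval of the limma fit. Filled points have an adjusted p under 0.05 and dotted lines mark the 1.5-fold. KGD4 lies farthest to the left (-1.50 with A347S) and SUCLG1 farthest to the right (0.90 with A347S), and every EAPP point is open.

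Since KGD4 also carries the name MRPS36, it was set beside the small subunit of the mitochondrial ribosome, represented by all 26 symbols that begin with MRPS, 1 of them a pseudogene. KLF11 gave them a median change of 0.17, A347S of 0.09 and Δ486 of 0.10. Rises and falls numbered 5 and 1 of the 26 for KLF11, 6 and 1 for A347S, and 3 and 2 for Δ486. That is 6, 7 and 5 of 26 past the adjusted p, where 17.3%, 28.4% and 22.4% of all clusters passed. MRPS11 rose by 0.52, 0.54 and 0.45 and MRPS12 by 0.43, 0.49 and 0.47 with KLF11, A347S and Δ486, while MRPS34 fell by 0.31, 0.52 and 0.40. The only call among them was the rise of MRPS18C with A347S (0.66, adjusted p = 0.0402), which was lost in 10 of the 20 alternatives that kept the adjusted p and the fold threshold. KGD4 was below the lowest of the 26 with each of the 3 constructs, the lowest being -0.31, -0.52 and -0.40. With EAPP none of the 26 passed, and their changes ran between -0.18 and 0.20.

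**Figure D3:**
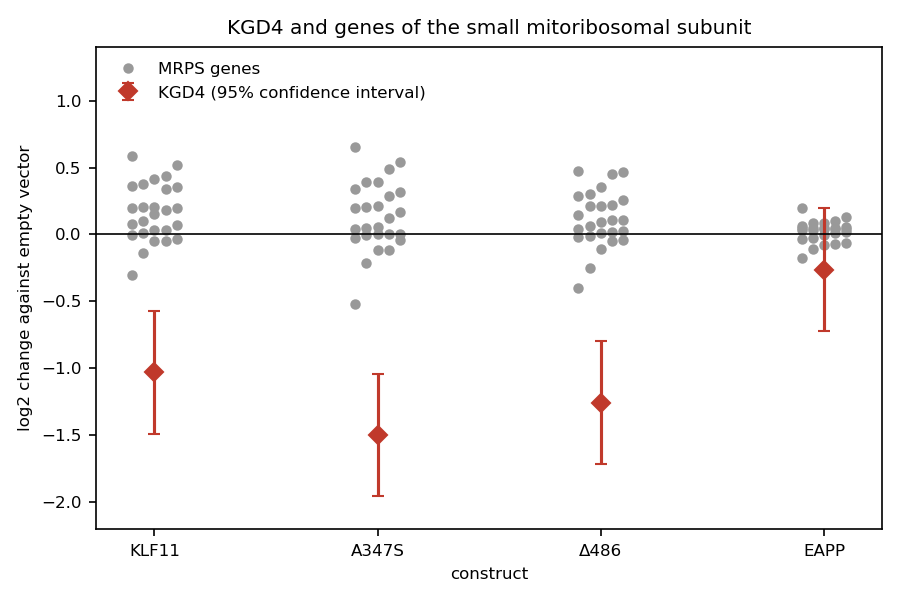
log2 change against EV (vertical axis) of KGD4 and of the 26 genes whose symbols begin with MRPS, for each construct. KGD4 lies below all 26 with KLF11, A347S, Δ486 and EAPP. The 26 run between -0.52 and 0.66 with A347S.

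The subunits of succinyl-CoA ligase moved in different directions. SUCLG1 (chr2:84423528-84459280) encodes the α subunit, which is needed for both forms of the enzyme. Its log2 signals were 10.09 and 9.97 for KLF11, 10.25 and 10.25 for A347S, 9.90 and 10.01 for Δ486 and 9.53 and 9.49 for EAPP, against 9.35 and 9.35 for EV. Every construct array was above both EV arrays, the EAPP arrays by the least. SUCLG1 rose by 0.68 with KLF11 (adjusted p = 0.000549), by 0.90 with A347S (adjusted p = 4.78e-05) and by 0.61 with Δ486 (adjusted p = 0.000595), each with an SE of 0.07. These are 1.6, 1.87 and 1.52 times the EV level, and 334, 296 and 456 clusters of the array had a higher change. With Δ486 the fold sat at the threshold, and it missed it after median scaling (0.53) and without the second Δ486 array (0.55). With EAPP the change was 0.16 (adjusted p = 0.589), with a 95% interval of -0.01 to 0.33.

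SUCLG2 (chr3:67360460-67654612) encodes the β subunit of the GTP-forming enzyme and went the other way. It gave 9.10 and 8.91 for KLF11, 8.74 and 8.76 for A347S, 8.93 and 8.85 for Δ486 and 9.35 and 9.33 for EAPP, against 9.29 and 9.23 for EV. The arrays of KLF11, A347S and Δ486 lay below both EV arrays and the EAPP arrays above them. A347S lowered SUCLG2 by 0.51 (log2 change -0.51, adjusted p = 0.00117) and Δ486 by 0.37 (-0.37, adjusted p = 0.00935), with an SE of 0.08. The change with KLF11 was -0.26 (adjusted p = 0.058), and that with EAPP was 0.08 (adjusted p = 0.851). The pass with Δ486 was lost without the first EV array (adjusted p = 0.069) and without the second Δ486 array (adjusted p = 0.0563).

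SUCLA2 (chr13:47942656-48001273) encodes the β subunit of the ATP-forming enzyme. Its log2 signals were 10.42 and 10.41 for KLF11, 10.56 and 10.54 for A347S, 10.44 and 10.49 for Δ486 and 10.35 and 10.33 for EAPP, against 10.19 and 10.24 for EV. No pair of groups overlapped, and all 4 constructs were above EV. SUCLA2 rose by 0.33 with A347S (adjusted p = 0.00406) and by 0.25 with Δ486 (adjusted p = 0.0226), with an SE of 0.07. The values with KLF11 and EAPP were 0.20 (adjusted p = 0.0687) and 0.12 (adjusted p = 0.649). With Δ486 the pass was lost when any 1 of the 4 arrays compared was left out (adjusted p between 0.0582 and 0.131), after median scaling (0.134) and in a fit of those 4 arrays only (0.0725). With A347S, in the same bulk RNA, the α subunit and the ATP-forming β subunit thus rose and the GTP-forming β subunit fell.

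MDH2 (chr7:76048106-76067508) oxidizes malate to oxaloacetate at the end of the cycle. Its log2 signals were 12.24 and 12.20 for KLF11, 12.15 and 12.16 for A347S, 12.26 and 12.18 for Δ486 and 12.15 and 12.19 for EAPP, against 12.21 and 12.14 for EV. All 4 constructs overlapped EV. The changes were 0.05 with KLF11, -0.02 with A347S, 0.05 with Δ486 and 0.00 with EAPP, with an SE of 0.07 and adjusted p-values between 0.688 and 0.995. The 95% intervals of all 4 lay between -0.18 and 0.21.

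Differences between constructs were tested directly, since a pass with one and not with another does not show a difference. A347S against KLF11, Δ486 against KLF11 and A347S against Δ486 gave 0 passes among the 8 genes and among all clusters (0%, limma adjusted p). At an unadjusted p under 0.05, 3 of the 8 genes and 3017 clusters (14.4%) separated A347S from KLF11. These were KGD4 (-0.47), SUCLG1 (0.22) and SUCLG2 (-0.26), each farther from EV with A347S than with KLF11. None of the 8 genes and 2211 clusters (10.5%) separated Δ486 from KLF11. Of the 8, 1, SUCLG1 (0.30), and 1557 clusters (7.43%) separated A347S from Δ486. The adjusted p-values of these 4 differences were between 0.231 and 0.642.

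EAPP, in contrast, differed from each of the other constructs. Against KLF11, OGDH was higher with EAPP by 0.51 (adjusted p = 0.00461), KGD4 by 0.77 (adjusted p = 0.0416) and SUCLG2 by 0.33 (adjusted p = 0.0307), and SUCLG1 was lower by 0.52 (log2 change -0.52, adjusted p = 0.00297). That is 4 of the 8, where 10.8% of clusters passed, and KGD4 alone was called, where 2.51% of clusters were. The KGD4 difference was 0.42 without the first EAPP array (adjusted p = 0.165), and it did not pass without either array of KLF11, EV or A347S (adjusted p between 0.0522 and 0.223). SUCLG2 did not pass without the second KLF11 array, either EAPP array or either EV array (0.0504 to 0.161). Against A347S, 6 of the 8 passed (23.4% of clusters) and 4 were called (6.01%). The calls were KGD4 (1.24, adjusted p = 0.00214), OGDH (0.66, adjusted p = 0.000493), SUCLG2 (0.59, adjusted p = 0.000897) and SUCLG1 (-0.74, adjusted p = 0.000199). SUCLG2 sat at the fold threshold and missed it without the first EAPP array (0.58) or the first A347S array (0.57). CS (0.27, adjusted p = 0.0265) and SUCLA2 (-0.21, adjusted p = 0.047) passed below the fold. CS lost its pass without either EAPP array or the second A347S array (0.07 to 0.161), and SUCLA2 with any of the 10 arrays left out (0.0581 to 0.156). Against Δ486, the 4 passes (15% of clusters) were KGD4 (0.99, adjusted p = 0.0108), OGDH (0.55), SUCLG2 (0.45) and SUCLG1 (-0.45), with KGD4 called (3.26% of clusters). The KGD4 call was lost without the first Δ486 array (0.88, adjusted p = 0.0619). DLST and MDH2 passed in none of the 3 comparisons.

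**Figure D4:**
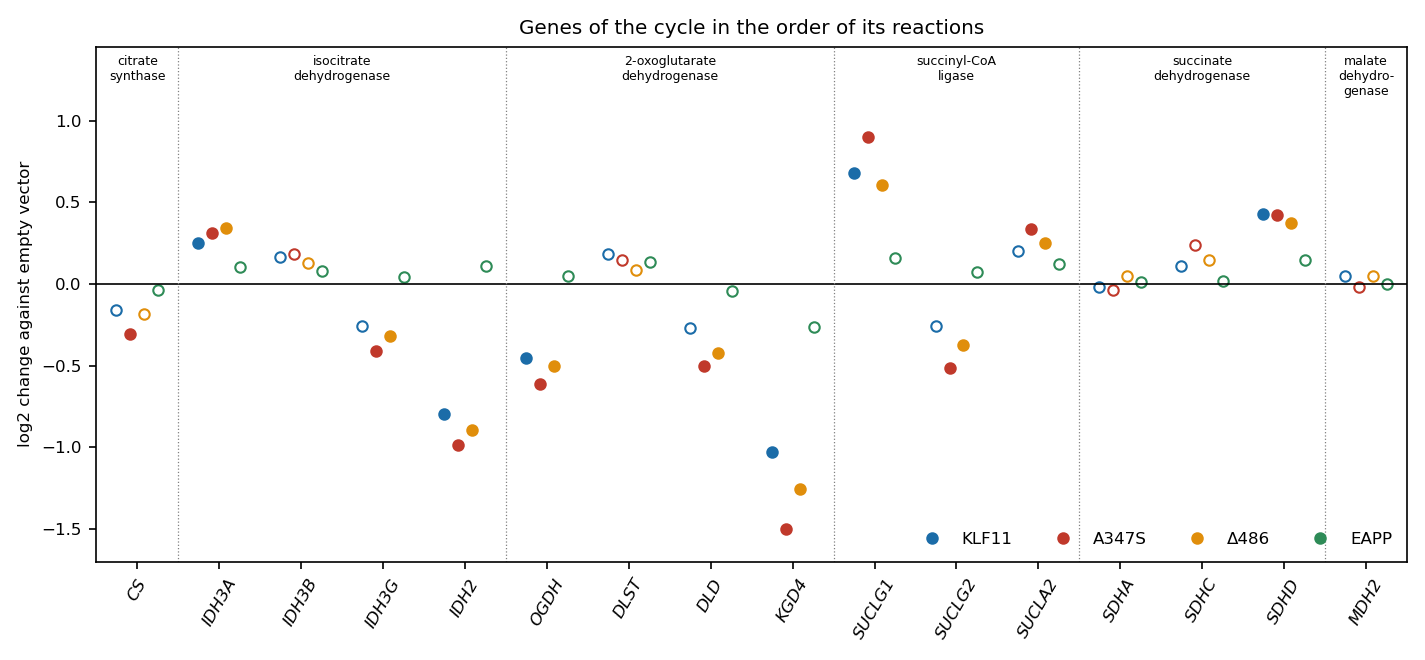
log2 change against EV (vertical axis) of the measured genes of the cycle in the order of its reactions, isocitrate and succinate dehydrogenase included, with 1 colour for each construct. Filled points have an adjusted p under 0.05. Falls of KGD4, IDH2 and OGDH and rises of SUCLG1, SUCLA2 and SDHD are seen with KLF11, A347S or Δ486, and the EAPP points are all open.

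The steps around these enzymes were mixed as well. Of 10 other genes of the cycle 8 were measured, with 2 rises and 1 fall for KLF11 and 2 rises and 3 falls each for A347S and Δ486, beside passes of 17.3%, 28.4% and 22.4% over all clusters. IDH2, the mitochondrial isocitrate dehydrogenase that uses NADP, was the only call among them, at -0.80, -0.98 and -0.90 with KLF11, A347S and Δ486. SDHD, a membrane anchor of succinate dehydrogenase, rose by 0.43, 0.42 and 0.37. IDH3G, a regulatory subunit of the NAD-dependent isocitrate dehydrogenase, fell with A347S (-0.41) and Δ486 (-0.32). IDH3A, the catalytic subunit of the same enzyme, named after its values were seen, rose by 0.25 with KLF11 (adjusted p = 0.0379), 0.31 with A347S and 0.35 with Δ486. Its pass with KLF11 was lost in 10 of 20 alternatives, and that with A347S in 1 of them, without the first EV array (adjusted p = 0.0541). Without the second EV array SDHD passed with none of the 3 constructs (adjusted p = 0.142, 0.103 and 0.19), and IDH3G not with Δ486 (0.0565). SDHAF3, an assembly factor of succinate dehydrogenase, rose by 0.56, 0.50 and 0.36, the only one of 3 measured assembly factors to pass.

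Among 7 cytosolic or related enzymes of the same reactions, 3 passed with KLF11, 5 with A347S and 4 with Δ486. Of all clusters, 17.3%, 28.4% and 22.4% passed in these comparisons. IDH1 alone was called, at -1.43 with KLF11, -2.10 with A347S and -1.78 with Δ486. MDH1, the cytosolic malate dehydrogenase, rose by 0.30 with KLF11 (adjusted p = 0.042) and 0.39 with A347S (adjusted p = 0.00838). Its change with Δ486 was 0.24 (adjusted p = 0.0786). ACO1, the cytosolic aconitase, was lower with A347S (-0.40) and with Δ486 (-0.34). DHTKD1, a relative of OGDH that acts on 2-oxoadipate, fell by 0.44 with KLF11 (adjusted p = 0.00485), and also with A347S (-0.31) and Δ486 (-0.26), whereas its change with EAPP was 0.56 (adjusted p = 0.116). DHTKD1 was higher with EAPP than with KLF11 by 1.00 (adjusted p = 0.000288). MDH1B rose by 0.38 with A347S and 0.43 with Δ486 at a dim signal of 3.43 to 3.86, and both passes were lost without the first EV array (adjusted p = 0.177 and 0.135).

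Of 10 measured genes for the entry or exit of carbon, which include pyruvate dehydrogenase, the malic enzymes and PCK2, 3 fell with KLF11, 4 with A347S and 4 with Δ486, and 0 rose. Of all clusters, 9.75%, 16.9% and 13.3% fell and 7.56%, 11.5% and 9.07% rose in these comparisons. PDHB encodes a subunit of the decarboxylase of pyruvate dehydrogenase, and its changes were -0.48, -0.84 and -0.70 with KLF11, A347S and Δ486. PC, which carboxylates pyruvate to oxaloacetate, fell by 0.69, 0.63 and 0.50, and PCK2, the mitochondrial phosphoenolpyruvate carboxykinase, by 0.43, 0.72 and 0.65. PDHA1, the α subunit, fell with A347S (-0.35) and Δ486 (-0.26). Of 4 measured genes for lipoate attachment, LIAS rose with A347S (0.31, adjusted p = 0.0325), where 11.5% of all clusters rose, and no other passed. That pass was lost in 8 of 20 alternatives, with cyclic loess, quantile and median scaling among them (adjusted p = 0.0599, 0.0707 and 0.0921). With EAPP none of the genes in these lists passed, in a test that 1 cluster of the array passed. PCK2 still changed by -0.52 with EAPP (limma adjusted p = 0.149, unadjusted p = 8.9e-05). IDH1 changed by -0.45 (adjusted p = 0.213, unadjusted p = 0.000398), and PC went the other way, as DHTKD1 did, by 0.19 (adjusted p = 0.527). Between EAPP and KLF11, PCK2 differed by -0.09 (adjusted p = 0.559). The lists were drawn up with earlier results of these data in view.

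Across the 10 arrays, the changed genes followed 2 opposite courses, given here as a description since the arrays share their groups. OGDH correlated with SUCLG2 at 0.946 and with CS at 0.925, and SUCLG1 with SUCLA2 at 0.946. OGDH and SUCLG1 correlated at -0.960, and SUCLG1 and SUCLG2 at -0.902. Among clusters at least as bright as the median cluster, the pattern most like that of CS was that of URB2 (Pearson r = 0.998 over 10 arrays). The nearest were PRMT1 for OGDH (0.993), NUP98 for KGD4 (0.994), MAPDA for SUCLG1 (0.992), KRTCAP2 for SUCLG2 (0.984) and CDC6 for SUCLA2 (0.992). DLST and MDH2, which had no change past the test, had less close neighbours, IFRD2 at 0.872 and PTTG1 at 0.923. IDH2 was second nearest to OGDH (0.993).

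Of the 6 epithelial markers, 1 fell with KLF11, 3 with A347S, 3 with Δ486 and 0 with EAPP, and none rose. The shares of all clusters that fell were 9.75%, 16.9%, 13.3% and 0%, and those that rose were 7.56%, 11.5%, 9.07% and 0.00477%. KRT19, an epithelial keratin, had the largest changes, at -0.99, -1.51 and -1.06 with KLF11, A347S and Δ486 (adjusted p = 0.00124, 6.14e-05 and 0.000601). With EAPP its change was -0.44 (limma adjusted p = 0.387, unadjusted p = 0.00796), and the EAPP arrays lay below both EV arrays. KRT8 and KRT18 fell with A347S (-0.43 and -0.25) and with Δ486 (-0.33 and -0.35). The mean log2 signal of the 6 was 9.13 to 9.23 with KLF11, 9.003 to 9.08 with A347S, 9.12 to 9.16 with Δ486, and 9.32 to 9.39 with EAPP, against 9.41 to 9.44 with EV. Without KRT19 the mean of the other 5 was 8.995 to 9.105 with KLF11, 8.95 to 9.03 with A347S, 8.996 to 9.04 with Δ486, and 9.10 to 9.19 with EAPP, against 9.106 to 9.18 with EV. The part of these markers in the changes above was not tested. Of the 15 markers of other cell types measured, COL1A1, a fibroblast collagen, fell with A347S (-0.34, adjusted p = 0.00422), and no other passed against EV with any construct. The mean of the 4 fibroblast markers was 5.33 to 5.47 over the construct arrays, against 5.52 to 5.56 with EV. The mean of the 3 acinar markers was 5.71 to 5.73 with KLF11, 5.72 to 5.78 with A347S, 5.86 to 5.90 with Δ486, and 5.73 to 5.79 with EAPP, against 5.80 to 5.87 with EV. The means of the leukocyte, endothelial and endocrine markers overlapped between EV and at least 1 construct.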

How the data were processed

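RNA of Panc1 cells was hybridized to Affymetrix Human Gene 1.0 ST arrays, 2 for each of 5 groups. The deposited values are log2 signals per transcript cluster, which the authors background-corrected and normalized by Robust Multiarray Analysis. The submitters' processing notes name Partek 6.6, and the genome build was not given in the sources used here. Values ran between 1.85 and 14.56. The number of arrays limits the precision.

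Of 28869 clusters, 7908 without a gene symbol were left out. Of the 20961 tested, 19229 carry 1 symbol. Genes were represented by their brightest cluster. Groups were taken from the labels, and replicate numbers from the titles. The 10 arrays entered 1 linear model with a mean per group, in limma 3.58.1 under R 4.3.3 (5 residual degrees of freedom, 4.54 from moderation, median SE 0.0954). P-values were adjusted over all tested clusters by Benjamini-Hochberg. The call rule was an adjusted p under 0.05 with a fold of at least 1.5. The study's results give that fold with a p-value and no adjustment, its methods state an absolute log2 change of 1.5 with a false discovery rate, and it judged EAPP without one, so the adjusted rule for EAPP is not the study's. The 8 genes are named, as are up to 4 genes of each other list with the largest change past the adjusted p, the nearest pattern of each and KLF11. IDH2 as second nearest to OGDH, IDH3A, MDH1 and the cell type markers were named after their values were seen. MDH1 was not refitted under the alternatives. The members and lists were chosen with earlier results of these data known. Alternatives covered the threshold, scaling, moderation, arrays, clusters tested, a replicate block and each array left out in turn. Plots used Python 3.11.15 and matplotlib 3.10.9. The promoter arrays, qPCR and network analyses were not used here.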

Additional observations from a re-analysis of the deposited data

How the results depend on the processing

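Of 736 changes of the 8 genes against EV under 23 alternatives, 706 kept direction and side of the call. Calls were lost in 15, gained in 7, and 8 changed sign. The 8 were KGD4 with EAPP against EV without the second EAPP array (0.080, left-out range -0.61 to 0.080), and values of MDH2 near 0. For MDH2 these were A347S against EV with quantile scaling (0.028) and without the first EV array (0.015, range -0.051 to 0.015), Δ486 against EV with median scaling (-0.026), and EAPP against EV with cyclic loess (0.0058), with quantile scaling (0.0042), without the first EV array (0.030, range -0.036 to 0.030) and without the first EAPP array (0.017). None of these passed the adjusted p. Only scaling or leaving out a compared array alters a log2 change, and most were uncalled, so 706 overstates stability.

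With an absolute log2 change of 1.5, the count of called genes was 0 for KLF11, A347S and Δ486 against EV and for EAPP against KLF11, A347S and Δ486. KGD4 with A347S against EV lay just short, at -1.499. With no fold threshold the count was 6 for A347S and 5 for Δ486 against EV, and 4 for EAPP against KLF11 and against Δ486. For KLF11 against EV the count of 2 was 1 without moderation and 1 to 2 with an array left out (1 without the second EV or the first KLF11 array). For Δ486 against EV the count of 2 was 1 with median scaling and 1 to 2 with an array left out (1 without the second Δ486 array). For EAPP against Δ486 the count of 1 was 2 with median scaling, 0 without moderation and in a fit of the 4 arrays compared, and 1 to 2 with an array left out (2 without the first EAPP array). Between constructs, the call of KGD4 for EAPP against KLF11 was lost in 15 of the 23 alternatives, that of SUCLG2 for EAPP against A347S in 5 and that of KGD4 for EAPP against Δ486 in 4. The first was lost, to a count of 0, with cyclic loess, quantile or median scaling, without moderation, with clusters lacking a symbol tested as well and in the 4 arrays compared, and it was 0 to 1 with an array left out. Over all clusters, the 1 call for EAPP against EV was 0 to 38 (38 with an unadjusted p).

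Passes of the adjusted p alone were 5 for KLF11 against EV, in place of 3, with a variance trend and robust moderation and with dim clusters left out. For Δ486 against EV they were 3 to 5 with an array left out (3 without the first EV or the second Δ486 array). For EAPP against KLF11 they were 2, in place of 4, with median scaling, without moderation, with clusters lacking a symbol and in the 4 arrays compared, and 2 to 4 with an array left out (2 without either EV array, the second KLF11 or the first EAPP array).

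Among the other genes named, leaving out 1 array ended these passes against EV (adjusted p between 0.0501 and 0.203). With KLF11 these were KLF11 itself (either KLF11), IDH3A (either array of EV, KLF11 or A347S), SDHD (second EV, first KLF11), PCK2 (second EV), MRPS12 (first KLF11) and MRPS34 (each of the 4 arrays compared). With A347S they were IDH3A (first EV), SDHD and DHTKD1 (both without the second EV or second A347S), MDH1B (first EV, either A347S), LIAS (either EV, second A347S) and MRPS18C (either array of EV, KLF11 or A347S). With Δ486 they were KLF11 itself (second Δ486), PDHA1 and DHTKD1 (each of the 4 compared), SDHD (second EV, either Δ486), IDH3G and SDHAF3 (either EV, second Δ486) and MDH1B (first EV, second Δ486).

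For arrays of the same number, deviations from group means correlated between -0.348 (Δ486 with EAPP) and 0.145 (KLF11 with EAPP). These values gave no common pairing by number. They cannot show that the arrays are unpaired or free of a shared array effect. A replicate block left the counts of called genes against EV at 2 for KLF11, 3 for A347S, 2 for Δ486 and 0 for EAPP. For EAPP against KLF11 the block gave 0. An array left alone in its group is assumed to vary like the others. The cause of these shifts was not tested.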
